A study of Mus musculus with 27 samples.

Results

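The contacts described here join an 850 kb core on mouse chromosome 4, from which a boundary was deleted, with the 2420 kb of chromosome to its right. The core spans chr4:107110001-107960000 and the right flank chr4:107960001-110380000 (mm10, the same assembly as GRCm38). The 3 bins of 10 kb that hold the deleted span, chr4:107710001-107740000, were left out at both ends. They divide the core into a left side of 600 kb (60 bins) and a right side of 220 kb (22 bins). All pairs of one core bin and one flank bin were taken, which gave 19844 pairs, 14520 from the left side and 5324 from the right side, of the 162165 pairs within the core and 2420 kb on either side of it. Pairs were chosen by position, with earlier results of these data known.

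The study deleted a boundary between topologically associating domains (TADs) in mice with CRISPR-Cas9 and examined the testis. Capture Hi-C was made from frozen testis of 3 wild-type samples (labelled Wild-type) and 3 samples homozygous for the deletion (labelled B396.BOS_hom_KO). Whether the 3 samples of a genotype came from separate animals is not given in the sources used here, nor are strain, age or the number of founder lines, so p-values measure the spread between these samples, which may be technical. Testis is a mixture of germ cells and somatic cells, and the contacts are averages over that mixture.

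Chromatin inside a TAD meets itself more often than it meets the neighbouring domain. At many boundaries the protein CTCF halts cohesin, the ring complex that extrudes chromatin loops, and removing such a site can let the domains on either side meet more often. In capture Hi-C, neighbouring DNA ends in the nucleus are joined by ligation and the products of chosen regions are pulled out with probes, so that a count is the number of ligated pairs seen between 2 bins. Contact falls with distance along the chromosome. The left side and the right flank lie across the deleted span from each other, whereas the right side and the right flank lie on the same side of it. The core holds Dmrtb1, a DM-domain transcription factor that governs the passage of spermatogonia into meiosis, Glis1, a zinc finger transcription factor, and Lrp8, an apolipoprotein E receptor that takes up selenoprotein P in the testis. The right flank holds 29 protein-coding genes of 62 genes of all kinds, and a start could be placed for 27 of the 29 from the promoter table (not for Zyg11a and Rnf11).

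Where the flank met the core most, or differed between the sides, 3 genes are named repeatedly. The 250 bases before the start listed for each in the promoter table are shown so that these places can be found (RefSeq, GRCm38.p6, plus strand, 5′ to 3′). The Slc1a7 promoter is at chr4:107968156-107968405, in the first window of the flank. The promoter listed for Ttc39a is at chr4:109415397-109415646, and that of Dmrta2 at chr4:109977775-109978024. These listed starts differ from the gene starts used further below. The gene start of Ttc39a is at 109394147, so its listed promoter lies inside the gene and in another 20 kb window. The gene start of Dmrta2, at 109977989, lies within the stretch shown. Capitals mark CpG dinucleotides, which are dense in CpG island promoters.
Slc1a7: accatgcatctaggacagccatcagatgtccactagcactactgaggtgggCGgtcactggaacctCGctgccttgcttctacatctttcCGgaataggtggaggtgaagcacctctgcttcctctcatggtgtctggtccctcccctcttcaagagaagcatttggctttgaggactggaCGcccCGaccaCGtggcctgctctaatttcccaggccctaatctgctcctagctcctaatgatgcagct
Ttc39a: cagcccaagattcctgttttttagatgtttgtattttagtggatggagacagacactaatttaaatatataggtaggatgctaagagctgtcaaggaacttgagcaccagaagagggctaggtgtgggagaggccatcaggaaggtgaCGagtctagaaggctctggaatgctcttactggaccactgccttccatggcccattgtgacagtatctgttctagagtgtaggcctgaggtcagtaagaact
Dmrta2: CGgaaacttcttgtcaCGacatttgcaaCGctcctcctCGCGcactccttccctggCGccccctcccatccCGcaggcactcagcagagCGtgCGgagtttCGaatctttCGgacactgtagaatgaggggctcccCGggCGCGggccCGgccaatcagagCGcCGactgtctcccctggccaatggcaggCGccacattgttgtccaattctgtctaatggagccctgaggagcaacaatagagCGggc
The Dmrta2 promoter holds 19 CpG dinucleotides, against 6 in the Slc1a7 promoter, 1 in the Ttc39a promoter and a median of 6 over the 32817 promoters in the table. Fewer than 19 were found in 80.3% of promoters of this length. These counts describe the sequence and no methylation was measured.

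Between 120814 and 200443 contacts per library joined the core with the right flank, 2.08% to 2.61% of all its contacts. Library totals ran from 5669898 to 7794641 contacts, and 96.0% to 98.5% of the pairs had at least 1 contact, with a median of 5 to 8. Replicate 2 was the deepest for these pairs in both genotypes (180930 contacts for wild type, 200443 for homozygous). Below, values of single libraries stand in the order of replicates 1, 2 and 3. The deletion was visible in the homozygous libraries: the middle and right bins of the deleted span kept 0.178% and 0.424% of their wild-type contacts, and the left bin 73.2%, which by coverage makes about 22.6 kb missing.

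In wild type, a smaller part of the left side's chromosome 4 contacts reached the right flank than of those of the right side, which lies nearer. Contacts with the deleted span were left out of these totals in both genotypes. The left side sent 10.8%, 9.91% and 10.6% for wild type, against 11.2%, 9.99% and 10.7% in the homozygous libraries. These values overlapped between genotypes, and replicate 2 was lowest in both. The means were 10.4% ± 0.447 in wild type and 10.6% ± 0.616 in homozygotes (SD, n = 3 each; two-sided exact permutation p = 0.6), and without wild-type replicate 2 or homozygous replicate 1 the difference changed sign, to -0.0207 and -0.0531 percentage points. The right side sent 17.8%, 16.3% and 17.6% in the wild-type libraries, against 17.4%, 15.8% and 16.8% in homozygotes. These also overlapped, with means of 17.2% ± 0.830 and 16.7% ± 0.848 (SD, n = 3; exact permutation p = 0.5). Within each same-numbered pair of libraries, the left side's share was higher in the homozygote in 3 of 3 pairs and the right side's was lower in 3 of 3, where the smallest p a sign-flip permutation over pairs can give is 0.25.

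Set against each other within a library, the sides differed between genotypes. The log2 ratio of the left side's share to the right side's share was -0.73, -0.71 and -0.73 for wild type, against -0.64, -0.66 and -0.65 for the homozygous libraries. Every homozygous library lay above every wild-type library. The means were -0.72 ± 0.0098 and -0.65 ± 0.011 (SD, n = 3), a difference of 0.076, larger than the larger SD of 0.011 (two-sided exact permutation p = 0.1, the smallest that 3 against 3 libraries can give). The deletion itself brings the left side closer to the flank, and the wild-type decay of contact with distance puts the shift from the 22.6 kb lost at 0.022. With that taken off, the difference was 0.054 and the groups still did not overlap. From contact counts alone, with no denominator, the log2 ratio of left-side to right-side contacts was 0.54 ± 0.011 in wild type and 0.59 ± 0.023 in homozygotes (SD, n = 3; exact permutation p = 0.1), a difference of 0.053. The nearest 220 kb of the left side, as long as the right side, gave a difference of 0.038, also without overlap. The shift from the 22.6 kb lost was not taken off the counts alone or the nearest 220 kb. From counts alone the lowest homozygous library was at 0.567 and the highest wild-type library at 0.551, closer than the shift of 0.022. For the nearest 220 kb they were at -0.666 and -0.672, closer than 0.022 as well.

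**Figure D1:**
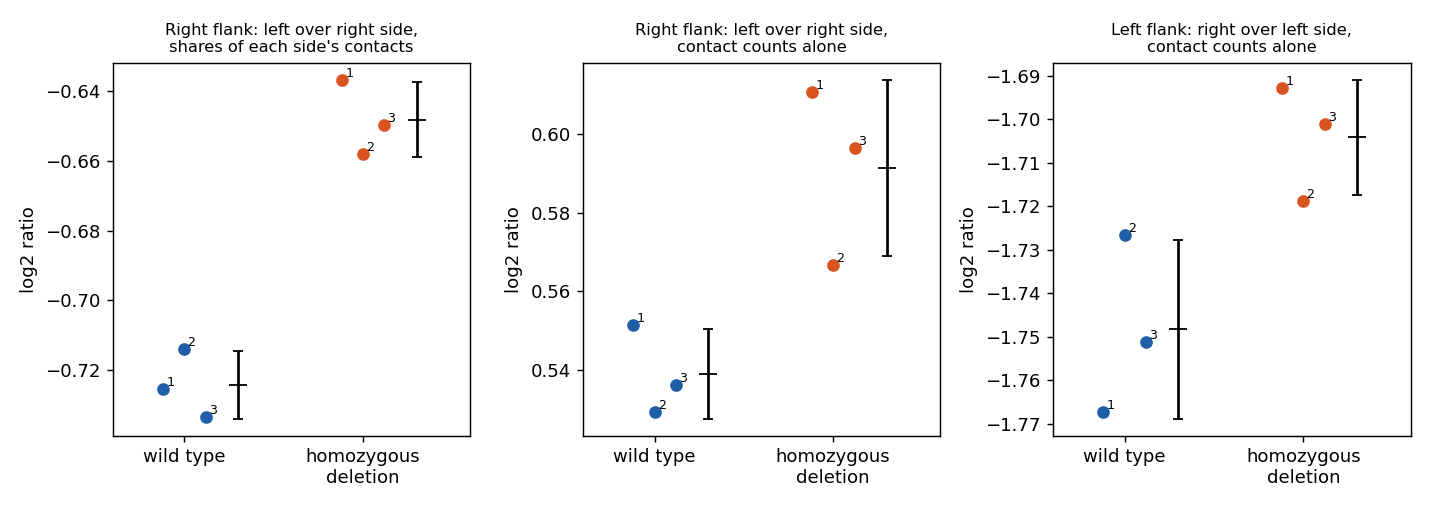
Log2 ratio of contacts per library (points, numbered by replicate) in 3 wild-type and 3 homozygous libraries, with the mean and SD beside them; the vertical axes do not start at 0. The left panel divides the sides' shares, the middle panel their counts in the right flank, and the right panel the right side's counts by the left side's in the left flank of equal length. In each panel the 3 homozygous libraries lie above the 3 wild-type libraries.

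When contacts within the core were left out of the denominator, a setting chosen after the data were seen, as were the counts alone and the nearest 220 kb above, the right side's share for the right flank was 32.9%, 32.2% and 33.2% for wild type, against 32.0%, 31.3% and 31.8% in homozygotes, lower in each homozygous library than in any wild-type library (32.8% ± 0.517 against 31.7% ± 0.384, SD, n = 3; exact permutation p = 0.1). The left side's share under that denominator was 20.1% ± 0.288 and 20.2% ± 0.488 (SD, n = 3; exact permutation p = 0.9). The mirror image was measured in the left flank of equal length, chr4:104690001-107110000, which the right side meets across the deleted span. There the log2 ratio of right-side to left-side counts was -1.77, -1.73 and -1.75 for wild type, against -1.69, -1.72 and -1.70 in homozygotes, higher by 0.044 without overlap (exact permutation p = 0.1). The highest wild-type library was at -1.7265 and the lowest homozygous library at -1.7187. No shift for the right side's shorter distance was taken off here. On the share scale the corresponding change of the left-to-right ratio in the left flank was -0.021 with overlap (exact permutation p = 0.4).

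Scaled by each side's own contacts, the sides' contacts with the flank differed little at equal distances. The homozygous libraries lay above the wild-type libraries. Contact per bin pair was divided by its side's mean chromosome 4 contacts per core bin. Over 100 kb distance classes from 300 to 2600 kb, the log2 ratio of left to right side was -0.067, -0.012 and -0.062 in the wild-type libraries, below 0 in each. In the homozygous libraries it was 0.044, 0.076 and 0.018, above 0 in each. The sign in a library depends on that division, and the ratio without it was not formed. The means of -0.047 ± 0.031 and 0.046 ± 0.029 (SD, n = 3) differed by 0.093, more than either SD, without overlap (exact permutation p = 0.1). Shortening the left side's distances in homozygotes by 2 or 3 bins left differences of 0.073 and 0.064, still without overlap, although homozygous replicate 3 then fell below 0, to -0.0011 and -0.0099.

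Contact fell off more slowly from the left side than from the right in each of the 6 libraries. The exponent of the fall with distance was -0.72 ± 0.059 on the left side and -0.84 ± 0.0076 on the right side in wild type, and -0.75 ± 0.048 and -0.86 ± 0.022 in homozygotes (SD, n = 3). The genotypes overlapped on both sides (exact permutation p = 0.5 for the left and 0.2 for the right). Among single classes, homozygous libraries were above wild type without overlap in 4 of 30 on the left side, which were the 4 between 400 and 800 kb, with log2 differences of 0.049 to 0.10. These 4 were all such classes of the 56 on both sides (7.14%). They were below it without overlap in 2 classes, both on the right side between 2200 and 2400 kb, at -0.12 and -0.16 (2 of 56, 3.57%). After Benjamini-Hochberg adjustment over each side's classes, the permutation p was 0.75 or above throughout. By bands, the left side's contacts at 500 to 1000 kb took 2.63% ± 0.0469 in wild type and 2.74% ± 0.0794 in homozygotes (SD, n = 3), with overlap (exact permutation p = 0.2, adjusted over the 4 bands 0.6).

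With no shift for the shorter distance taken off, the difference between the sides was spread along the flank rather than set at a single gene. In 220 kb stretches, drawn after values had been seen, the log2 left-to-right ratio of counts was higher in homozygotes in 11 of 11, by 0.0035 to 0.095. It did not overlap between genotypes in 8 of them (exact permutation p = 0.1 each, adjusted over the stretches 0.14) (of the 22 stretches of both flanks, 36.4% lay above and 18.2% below wild type without overlap). The first stretch, with Slc1a7, a glutamate transporter, and Scp2, the sterol carrier protein, went from -0.19 ± 0.017 to -0.11 ± 0.023 (SD, n = 3). The fifth, with Rab3b, a small GTPase of regulated exocytosis, and Nrd1, the endopeptidase nardilysin, went from 0.74 ± 0.044 to 0.83 ± 0.038. The last, with Elavl4, a neuronal RNA-binding protein, went from 0.93 ± 0.027 to 1.02 ± 0.068. There the lowest homozygous library, at 0.947144, barely cleared the highest wild-type library, at 0.947141. The stretch around Dmrta2, a DM-domain transcription factor of the developing forebrain, showed 0.76 ± 0.023 and 0.77 ± 0.038, with overlap. The shift from the shorter distance alone runs from 0.044 in the first stretch down to 0.0084 in the last.

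**Figure D2:**
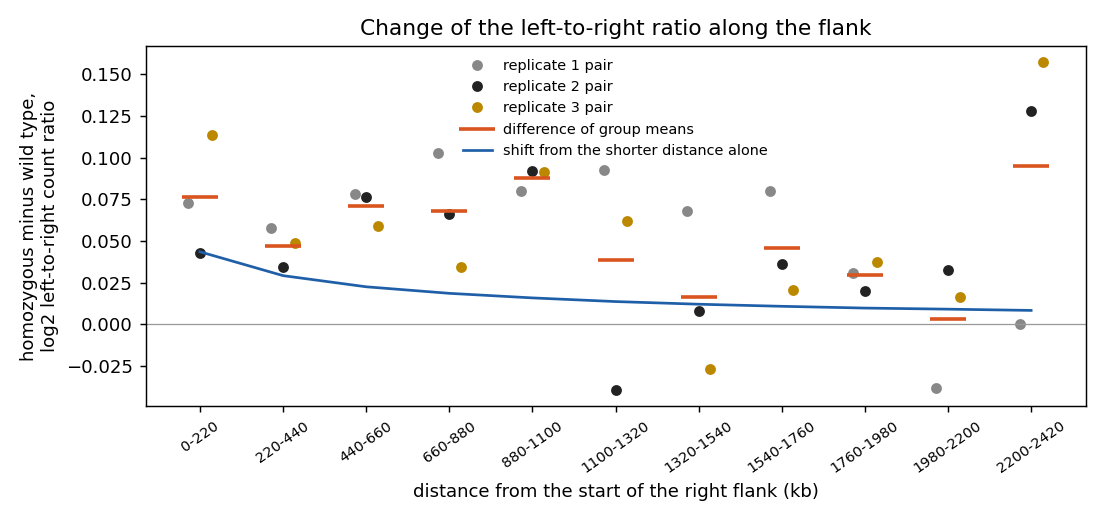
Homozygous minus wild-type log2 left-to-right ratio of counts in 11 stretches of 220 kb along the right flank, for each same-numbered pair of libraries (points), for the group means (bars), and as the shorter distance alone would give (line). The difference of means is above 0 in all 11 stretches and lowest, at 0.0035, in the stretch around Dmrta2.

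In 20 kb windows the same ratio was higher in homozygotes in 90 of 121 right-flank windows (74.4%) and in 36 of 121 left-flank windows (29.8%), with median differences of 0.052 and -0.048. Homozygous libraries lay above wild type without overlap in 21 right-flank windows and below in none, where 9.5% of the windows of both flanks were above and 4.96% below. The 21 include the first 5 windows of the flank, over Slc1a7, Podn and the 3′ part of Scp2, and 3 adjoining windows at and before Nrd1. No shift for the shorter distance was taken off these ratios either.

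The side-by-genotype term was tested window by window with edgeR's quasi-likelihood test over both flanks. It passed an adjusted p of 0.05 in 1 of 121 right-flank windows, where 0.413% of the 242 windows of both flanks passed. That window, chr4:107960001-107980000, is the first of the flank and holds the Slc1a7 promoter shown above and part of the long noncoding gene 4930407G08Rik. The left side had 1333, 2112 and 1747 contacts with it in the wild-type libraries, against 1337, 2503 and 1903 in the homozygous libraries. Per 100000 contacts of the side these are 196 ± 5.79 and 209 ± 4.03 (SD, n = 3), higher in every homozygous library. The right side had 2578, 3996 and 3417 contacts for wild type, against 2335, 4245 and 3269 in homozygotes, or 906 ± 39.2 and 849 ± 20.7 per 100000, lower in every homozygous library. Neither side's own log2 fold change passed, at 0.088 on the left and -0.076 on the right (adjusted p = 0.94 and 0.98, edgeR). With the block they did not pass either (adjusted p = 0.069 and 0.093, edgeR). The side-by-genotype term was 0.14 ± 0.032 (SE, log2; adjusted p = 0.029, edgeR), and 0.14 with the replicate block (adjusted p = 0.011, edgeR, 0.413% of windows called). With an offset for the shorter distance of the left side it was 0.087 (adjusted p = 0.81, edgeR), and no window passed. The call was also lost without any one of wild-type replicates 2 and 3 and homozygous replicates 1, 2 and 3. Among the 21 windows above, the term was largest in Nrd1, at chr4:109020001-109040000, with 0.25 ± 0.068 (SE, log2; adjusted p = 0.10, edgeR).

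Tested side by side against genotype, the right-flank windows gave 0 calls of 242 with edgeR (8 at an unadjusted p under 0.05) and 0 with DESeq2 (2 unadjusted), where 0.177% of the 566 windows of the whole table passed with edgeR (43 windows unadjusted) and 12 windows with DESeq2 (28 unadjusted). On the left side 74 of 121 log2 fold changes were above 0, with a median of 0.019, and on the right side 80 of 121 were below 0, with a median of -0.040. Over the whole table the median was -0.0045. Under the other scalings the medians were 0.019 to 0.029 on the left side and -0.058 to -0.029 on the right, so that their signs did not change. Same-numbered libraries of the genotypes deviate together, and with the replicate number as a block 4 right-flank windows passed, against 10.1% of the whole table (7.07% higher and 3% lower in homozygotes). With the block and the flank windows fitted without the core, a setting chosen after the data were seen, none passed (37 unadjusted).

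A window of Dmrta2 had the right side's highest contact relative to distance in wild type (given with the other peaks of the profile) and was 1 of these 4 windows. Its window chr4:109980001-110000000 had 337, 516 and 405 contacts with the right side in the wild-type libraries, against 270, 472 and 367 in the homozygous libraries. Per 100000 contacts of the side this was 114 ± 2.02 and 96.0 ± 3.46 (SD, n = 3), lower in every homozygous library. The log2 fold change was -0.23 ± 0.063 (SE) with the block (adjusted p = 0.0074, edgeR) and -0.23 ± 0.062 without it (adjusted p = 0.20, edgeR). The left side's contact with this window also had a value below 0, -0.15 ± 0.051 with the block (adjusted p = 0.056, edgeR).

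Inside Elavl4, at chr4:110260001-110280000, the right side had 158, 244 and 193 contacts for wild type, against 118, 208 and 168 in homozygotes. Per 100000 these were 53.9 ± 0.558 and 42.8 ± 2.07 (SD, n = 3), with no overlap, and a log2 fold change of -0.32 ± 0.083 (SE) with the block (adjusted p = 0.0056, edgeR) and of -0.32 ± 0.079 without it (adjusted p = 0.16, edgeR). The left side's contact with the same window overlapped between genotypes, at 39.3 ± 3.57 and 37.9 ± 5.33 per 100000. In Nrd1 the right side had 145 ± 15.04 and 128 ± 14.2 per 100000, with overlap, and a log2 fold change of -0.16 ± 0.054 (SE) with the block (adjusted p = 0.0499, edgeR). Without the block it was -0.16 (adjusted p = 0.66, edgeR), and -0.096 without homozygous replicate 2. The 1 window that passed in the other direction was on the left side, chr4:108220001-108240000 in Zyg11b, a substrate receptor of a cullin ubiquitin ligase, with 133 ± 4.65 and 145 ± 9.86 per 100000, with overlap, and a log2 fold change of 0.12 ± 0.037 (SE; adjusted p = 0.029 with the block and 0.64 without it, edgeR).

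**Figure D3:**
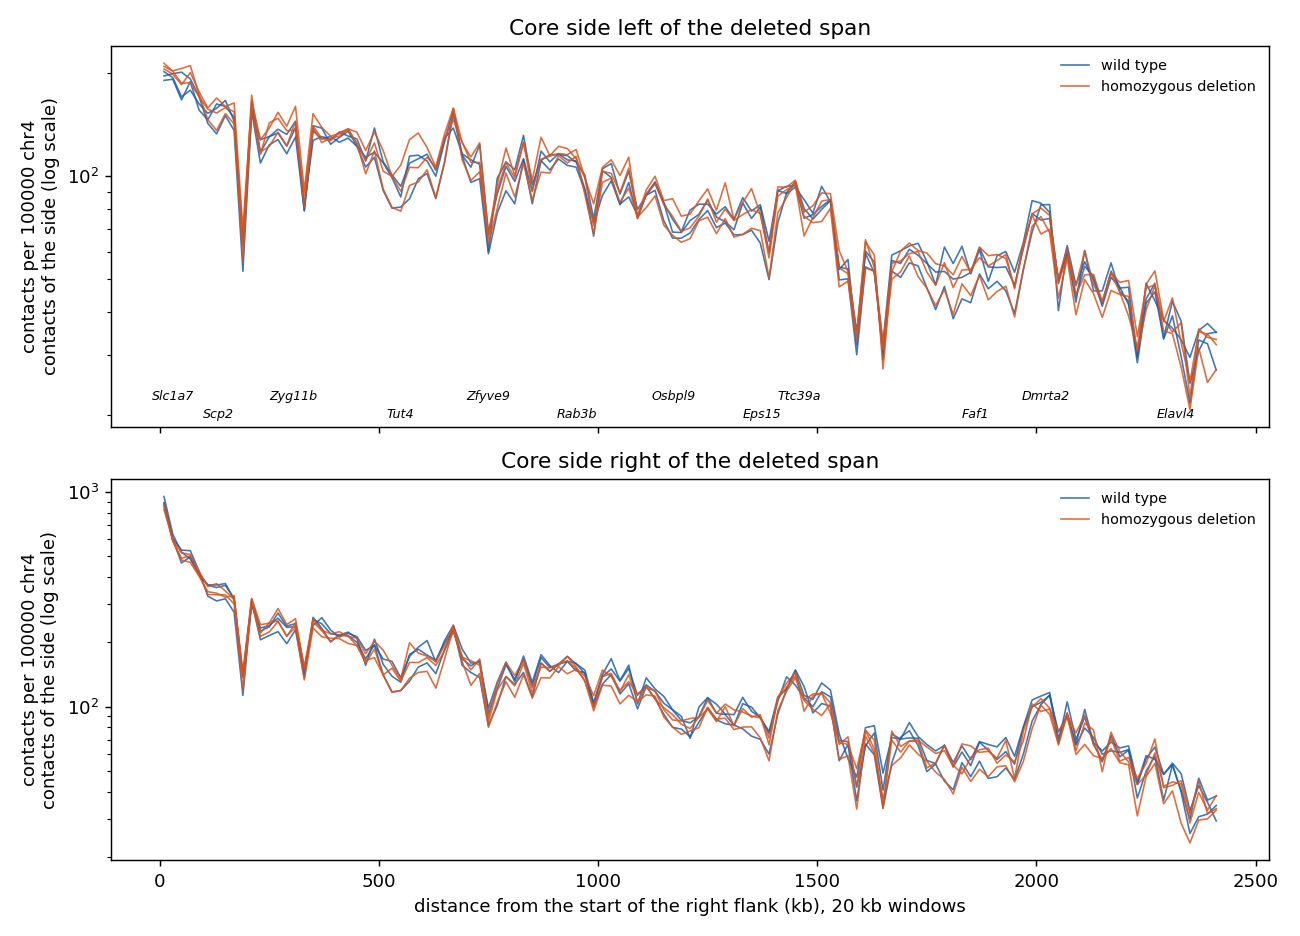
Contacts per 100000 chromosome 4 contacts of the side (log axis) in 20 kb windows of the right flank, against distance from the flank's start, for the left side (top) and the right side (bottom); each line is 1 of 3 wild-type or 3 homozygous libraries. The lines share their peaks and troughs, among them the trough at the start of Scp2, and both sides show the rise around Dmrta2.

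Both sides had counts above and below what distance gives in the same parts of the flank. For each side and library, the contacts expected in a 20 kb window were taken from that side's own fall with distance. That fall was fitted from 300 to 2600 kb and extended to nearer and farther pairs. The log2 of observed over expected was then formed. Over the 121 windows the values of the sides went together with Pearson's r of 0.76 to 0.89 and Spearman's rho of 0.71 to 0.85 in the 6 libraries. The windows of a library share its depth and their neighbours, so these are descriptions. Counts were not corrected for how well each flank bin is captured, cut or mapped. Such differences would enter the profiles of both sides alike, and their part in the shared peaks and troughs was not tested. The wild-type and homozygous means correlated at 0.99 on the left side and 0.98 on the right. Across windows the wild-type means had an SD of 0.34 on the left side and 0.38 on the right.

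Highest for the left side, and among the 5 highest for the right, was the window over Cc2d1b, a regulator of membrane remodelling, and the end of Zfyve9, an endosomal adaptor of TGF-β receptors (chr4:108620001-108640000). Its log2 observed over expected was 0.56 ± 0.13 for the left side and 0.63 ± 0.092 for the right in wild type, and 0.58 ± 0.10 and 0.67 ± 0.088 in homozygotes (SD, n = 3). The window with the Ttc39a promoter shown above reached 0.43 ± 0.12 and 0.74 ± 0.19 in wild type, and the 2 windows over Dmrta2 0.45 ± 0.16 and 0.44 ± 0.17 for the left side and 0.71 ± 0.054 and 0.83 ± 0.084 for the right. The window before them, toward the 3′ end of Faf1, a ubiquitin-binding adaptor, was at 0.38 ± 0.039 and 0.57 ± 0.075. Lowest for both sides was the window at the start of Scp2 (chr4:108140001-108160000), at -1.31 ± 0.15 and -1.42 ± 0.10. It held 452, 568 and 545 contacts with the left side for wild type, against 456, 681 and 558 in homozygotes. The window over Gm40226, a long noncoding gene, was also low, at -1.04 ± 0.034 on the left side. So was chr4:109600001-109620000, at -1.09 ± 0.098 on the left side. It holds only the edge of the pseudogene Gm19112, up to 109600047. A window inside Elavl4 was at -1.09 ± 0.11 on the left side.

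In the windows after the one with the start of Dmrta2, the right side's mean lay above the left side's in 18 of 20 windows in wild type and in 20 of 20 in homozygotes. The left side's pairs with these windows reach the class of 3200 to 3300 kb, past the fitted 2600 kb. Its expectation is extrapolated there, and the part this plays was not tested. In the window chr4:110020001-110040000, where no gene is listed, the right side stood at 0.60 ± 0.21 and the left side at 0.087 ± 0.12 in wild type, and at 0.62 ± 0.14 and 0.038 ± 0.088 in homozygotes (SD, n = 3). The wild-type log2 ratio of left-side to right-side counts rose from -0.19 in the first stretch to 1.09 in the ninth and was 0.76 in the stretch around Dmrta2, which begins inside Faf1. Homozygotes had the same shape, from -0.11 to 1.12 and then 0.77. The last window of the flank had -0.71 ± 0.099 and -0.72 ± 0.24 in wild type.

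**Figure D4:**
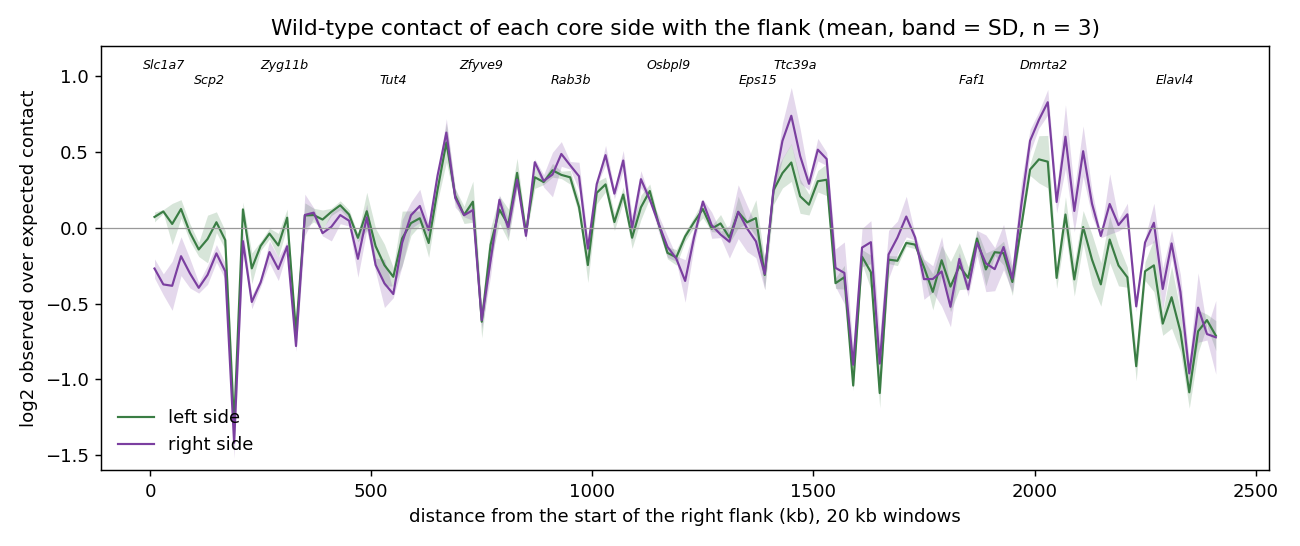
Mean log2 observed over expected contact of the left and right core sides with 20 kb windows of the right flank in wild type, with bands of 1 SD over 3 libraries. The sides share the peaks at Cc2d1b and Zfyve9, Ttc39a and Dmrta2 and the trough at the start of Scp2, and the right side lies above the left in 18 of the 20 windows after the one with the start of Dmrta2, up to the flank's end. For pairs beyond 2600 kb the left side's expectation is extrapolated.

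By gene, the window of the start was taken; of the genes listed by function, Cpt2 lies in the core and Agbl4 beyond the flank. Among the 27 protein-coding genes, the left side's log2 fold change was above 0 for 20 (median 0.020) and the right side's below 0 for 23 (median -0.061), where the medians over all 121 windows were 0.019 and -0.040. The 27 starts lie in 23 windows, since Prpf38a and Orc1, Btf3l4 and Txndc12, Osbpl9 and Calr4, and Cdkn2c and Faf1 share one, so that these genes have the same value. No start window passed the test on either side, with or without the block. All 5 genes of RNA processing and the cell cycle were below 0 on the right side, with a median of -0.12: Tut4, a terminal uridylyltransferase, Prpf38a, a spliceosome protein, Orc1, the largest subunit of the origin recognition complex, Kti12, which acts in tRNA modification, and Cdkn2c, a cyclin-dependent kinase inhibitor. Prpf38a and Orc1 start in the same window, with 179 ± 22.1 and 162 ± 14.2 per 100000 (SD, n = 3). Of the 4 genes of membrane traffic, 3 were below 0 on the right side, Zfyve9 at -0.032, Eps15, an endocytic adaptor, at -0.079 and Faf1, in the window of Cdkn2c, at -0.17, and Rab3b was at 0.038. In lipid metabolism, Scp2 and Echdc2, an enoyl-CoA hydratase family member, were above 0 on both sides (0.057 and 0.046 on the right), and Osbpl9, an oxysterol-binding protein relative, was at -0.049 on the right. The start of Zyg11b was at 0.084 on the left and -0.024 on the right. The starts of Dmrta2 and Elavl4 were below 0 on both sides.

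Seen from the core, the share of a bin's chromosome 4 contacts that reached the right flank was lowest far to the left and rose toward the flank. In wild type it ran from 6.29% in a bin of Yipf1 (chr4:107330001-107340000) to 12.8% in the last bin before the deleted span. On the right side it ran from 10.2% to 21.2% at the flank's edge. It rose toward the span from the left, over Dmrtb1, and fell again to the right of it: 12.8% ± 0.986 on the left edge of the span, 12.9% ± 0.531 on the right edge and 10.2% ± 0.907 at Lrp8os3, a long noncoding gene beside Lrp8, before the rise toward Cpt2, a mitochondrial fatty acid transferase, at 19.0% ± 0.580 (SD, n = 3). In homozygotes the median over the left side's 60 bins was 8.03% against 7.84%, with 48 of 60 bins higher. Over the right side it was 12.9% against 13.2%. There the 11 bins nearest the span were lower in homozygotes in 11 of 11, by a median of 0.714 percentage points, and the 11 nearest the flank were higher in 9 of 11, by a median of 0.350. On the left of the span, the 5 nearest bins, over and beside Dmrtb1, were also lower by 0.249, 0.0269, 0.428, 0.732 and 0.658 percentage points, and 13 of the nearest 22 were higher.

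Without the block no core bin passed the edgeR test (0 of 82; 1 at an unadjusted p under 0.05; 0 with DESeq2; 0% of the 164 rows of the fit). With the replicate block 13 of 82 passed, where 12.2% of the rows did (4.88% higher and 7.32% lower in homozygotes). These were 6 higher and 3 lower on the left side and 4 lower on the right side. The SE of a bin ran from 0.032 to 0.051 with the block, and from 0.047 to 0.21 without it. The quasi-likelihood fit pools the spread over the rows. The p-values with the block therefore rest more on that shared spread than on a single bin's own spread between libraries. With each bin's own chromosome 4 contacts as an offset and the block, 12 passed (9.15% of the rows): 6 higher on the left side, 1 lower on the left side and 5 lower on the right side, all 5 among the 11 nearest the span. That setting was chosen after the data were seen.

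The bin just right of the deleted span, chr4:107740001-107750000, at the end of the long noncoding gene 1700047F07Rik, sent 13.1%, 12.3% and 13.3% of its contacts to the right flank in the wild-type libraries, against 11.8%, 10.5% and 11.3% in the homozygous libraries. Every homozygous value was below every wild-type value. Its log2 fold change was -0.16 ± 0.036 (SE) with the block (adjusted p = 0.00094, edgeR) and -0.16 ± 0.047 without it (adjusted p = 0.999, edgeR). Next to it, the bin over the long noncoding gene Gm12907 and the pseudogene Gm12906 went from 11.98% ± 0.419 to 10.9% ± 0.706, and the bin at chr4:107770001-107780000 at the end of Gm12907 from 10.9% ± 0.227 to 9.89% ± 0.658 (SD, n = 3). These 3 of 82 bins lay below wild type without overlap, where 4.27% did over both flanks. A further 1 of 82, in Ndc1 at chr4:107360001-107370000, lay above it, where 3.66% did. Neither count is above its share over both flanks. In the bin of Gm12907 and Gm12906 the lowest wild-type library, at 11.504%, barely cleared the highest homozygous library, at 11.501%. The Lrp8os3 bin overlapped between genotypes, at 10.2% ± 0.907 and 9.37% ± 1.02, and passed with the block (log2 -0.11, adjusted p = 0.022, edgeR). Without the block its value was -0.11, and it became -0.039 without homozygous replicate 2, -0.045 without wild-type replicate 1, -0.18 without homozygous replicate 1 and -0.20 without wild-type replicate 2. The value of the bin at the end of Gm12907 went from -0.12 to -0.077 without homozygous replicate 2.

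On the left side the bin chr4:107330001-107340000 of Yipf1, a Golgi membrane protein gene, sent 6.50%, 5.69% and 6.69% for wild type, against 7.37%, 6.32% and 7.15% in homozygotes. The groups overlapped, and each pair was higher in the homozygote. Its log2 fold change was 0.16 ± 0.033 (SE; adjusted p = 0.0034 with the block, edgeR), and without wild-type replicate 2 the value without the block went from 0.15 to 0.049. Bins of Ldlrad1, Ndc1, a transmembrane nucleoporin, and Glis1 (chr4:107210001-107220000, chr4:107410001-107420000 and chr4:107530001-107540000) had log2 fold changes of 0.11, 0.11 and 0.10 with the block (adjusted p = 0.024, 0.022 and 0.024, edgeR). Without the block this Ndc1 bin went from 0.11 to 0.0098 without wild-type replicate 2, to 0.028 without homozygous replicate 1 and to 0.22 without homozygous replicate 2. The adjoining Ndc1 bins chr4:107390001-107400000 and chr4:107400001-107410000 fall outside the rule for named bins. They were at 0.10 and 0.095 with the block (adjusted p = 0.035 and 0.041, edgeR). With their own contacts as an offset as well they did not pass (adjusted p = 0.29 and 0.055, edgeR). Over Dmrtb1 the bin chr4:107680001-107690000 was in the other direction, at -0.14 ± 0.037 (SE; adjusted p = 0.0034 with the block, edgeR), and with its own contacts as an offset as well -0.058 (adjusted p = 0.28, edgeR). The value without the block ran from -0.19 to -0.092, the latter without wild-type replicate 2. The adjoining bin chr4:107690001-107700000, also over Dmrtb1, falls outside the rule for named bins and was added after its values were seen. It was at -0.11 with the block (adjusted p = 0.029, edgeR) and at -0.10 with the offset as well (adjusted p = 0.047, edgeR). The bin of Lrrc42 and Hspb11, an intraflagellar transport protein, was at -0.13 with the block (adjusted p = 0.0050, edgeR) and at 0.038 with the offset, so that its direction depended on the scaling.

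For expression, only the regression tables that the authors deposited for 9 RNA-seq samples (3 wild type, 3 heterozygous, 3 homozygous) were used. None of the flank's 62 genes is among the 6 of the authors' deposited cis table. The authors' deposited trans table lists 566 genes (1.57% of 35970 tests), and 2 of the flank's genes are among them. In the authors' deposited table, Dmrta2os, the noncoding gene beside Dmrta2, has a t statistic of 4.52 (p = 0.0027, FDR 0.63), and Slc1a7 has 3.60 (p = 0.0088, FDR 0.63). Neither passes an FDR of 0.05, and 95.1% of the table's slopes are positive, as are these 2.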

How the data were processed

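Capture Hi-C libraries were made from frozen testis with an Arima kit, then enriched with Agilent SureSelect probes, per the labels' protocols. The authors deposited raw contact counts per pair of 10 kb bins for 6 libraries; mm10 is given in the submitters' processing notes, while the aligner, filters and binning are not given in the sources used here. The authors' deposited regression tables hold a score (t statistic and slope), a p-value and an FDR per gene; the unit of expression is not given in the sources used here. ChIP-seq was not analysed here.

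Contacts were summed per core side, 20 kb window and 10 kb core bin. Single values were compared by two-sided exact permutation over 20 arrangements. Sums were tested with edgeR 4.0.16 (TMM, quasi-likelihood, mean count of at least 10, Benjamini-Hochberg over the whole table, threshold 0.05) in R 4.3.3, with DESeq2 1.42.0 as an alternative; the interaction fit had the library as a block. The scripts were tested on simulated data. With 5669898 to 7794641 contacts per library, flank windows held 85 to 4245 contacts each per library; counts limit the precision and no interval was drawn. Alternatives were other denominators, scalings, window sizes and distance corrections, no filter, leaving out each library, and the replicate block.

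Replicate numbers come from the titles. Deviations from the group means of same-numbered wild-type and homozygous libraries correlated at 0.47, 0.71 and 0.25, so the numbers were taken to pair the libraries, although wild-type replicate 3 correlated slightly more with homozygous replicate 1 (0.30), and homozygous replicate 3 with wild-type replicate 1 (0.31). Named windows are those past the threshold in a fit, the 5 highest and 3 lowest observed over expected of each side, and the first and last; named bins are those past the threshold (up to 10), the 3 highest and 3 lowest shares of each side and those beside the span. Windows and bins past the threshold only with the block were added. Members, gene lists and the parts of the core were chosen with earlier results of these data known.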

Additional observations from a re-analysis of the deposited data

Results flagged for a closer look

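In the first window of the right flank, over the start of Slc1a7, the mean contact was higher in homozygotes for the left core side and lower for the right. The side-by-genotype term was 0.14 on the log2 scale (edgeR, adjusted p = 0.029). Neither side's own change passed (adjusted p = 0.94 on the left and 0.98 on the right, edgeR). The window was selected because the term itself passed the test. With an offset for the shorter distance of the left side, the term was 0.087 and did not pass (adjusted p = 0.81, edgeR).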

How the results depend on the processing

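Of the measures in the report, the left-to-right ratio kept its direction in the right flank under each alternative run there, between 0.038 and 0.077 apart from leaving out libraries (0.070 to 0.081). In the left flank its sign was reversed (-0.021); by construction the right side is the one brought closer there. The matched-distance ratio ran from 0.064 to 0.097 over settings and from 0.078 to 0.11 when libraries were left out. With 3 against 3 libraries none of these can pass 0.05, so the stability of a p-value says nothing here.

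The left side's share had differences of -0.053 (without homozygous replicate 1) to 0.56 percentage points (without homozygous replicate 2), and -0.021 without wild-type replicate 2. The right side's ran from -1.004 to -0.071 when libraries were left out. With core contacts out of the denominator, per library and per contacts with both flanks, the right side's difference was -1.05, -0.0062 and -0.92 points and the left side's 0.10, 0.040 and 0.68. The left side's band at 1000 to 2000 kb ran from -0.060 (without homozygous replicate 1) to 0.30 and was -0.032 without wild-type replicate 2. The band over 2000 kb ran from -0.11 to 0.094 (without homozygous replicate 2), with 0.056 and 0.011 without wild-type replicates 1 and 3. The bands up to 500 kb and at 500 to 1000 kb ran from 0.013 to 0.037 and from 0.064 to 0.14. When libraries were left out, decay exponents differed by -0.062 to -0.0030 on the left side and by -0.036 to -0.014 on the right; from the classes of 500 to 2000 kb alone they differed by -0.034 and -0.0038.

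With the replicate block, 4 flank windows and 13 core bins passed in place of 0 and 0, and 12 core bins passed with the block and their own contacts as an offset together (0 with the offset alone), a setting added after the data were seen. For the shares, ratios and decay exponents the smallest p over pairs is 0.25, and the block changed no other call. The interaction had 1 called window, 0 with 10 kb windows, 110 kb windows or the offset for the shorter distance, 5 (2.07% of windows) with side totals as the library size, a setting added after the data were seen, and 0 to 1 when libraries were left out. No flank window or core bin passed when any library was left out of the fits without a block. The Lrrc42 and Hspb11 bin went from -0.13 to 0.041 with its own contacts as an offset, and to 0.038 with the block as well. The likeness of the sides, a mean r of 0.83 in wild type, was 0.96 from log2 contacts without an expectation, which keeps the shared fall with distance. The cause of the other changes was not tested. Depth limits single windows: the flank windows held 85 to 4245 contacts per library, and their median SE, which also holds the spread between libraries, was 0.068 on the left side and 0.073 on the right.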
